A study of Homo sapiens with 12 samples.

Results

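The mitochondrial carriers, the uncoupling proteins and the porins were followed by RNA sequencing in HepG2, an established line from a human hepatocellular carcinoma. The members were the protein-coding genes whose GENCODE 29 symbol is SLC25A with a number, UCP1 to UCP3, MPC1, MPC2, MTCH1, MTCH2 or VDAC1 to VDAC3. Of 57500 genes counted, 58 met this rule, comprising 48 SLC25A genes, 3 UCP, 2 MPC, 2 MTCH and 3 VDAC genes. Gene positions are those of the count files (GRCh38).

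The study compared wild-type cells (WT), a line carrying an shRNA plasmid against TST (shTST) and a line overexpressing TST from a lentiviral CMV vector (overTST), with 4 libraries each. TST, thiosulfate sulfurtransferase or rhodanese, is a mitochondrial enzyme that converts cyanide to thiocyanate. By the study's methods, all 3 groups were kept for 24 h in normal culture medium, which held 400 µM glycine. Glycine is the amino acid that the study examined as a source of cyanide. Transduced cells were selected with blasticidin, a step the methods do not describe for WT, so the genetic change and the selection cannot be told apart. The study's methods describe its experiments in general as repeated on separate days, but neither they nor the labels say so of these libraries in particular, and if they were not separate cultures the p-values measure a spread that may be technical.

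The inner mitochondrial membrane is closed to most metabolites. Carriers of the SLC25 family, built from repeated pairs of membrane helices, exchange nucleotides, phosphate, di- and tricarboxylates, amino acids and cofactors across it. Uncoupling proteins belong to the same family, the pyruvate carrier is a separate family of small proteins, and the porins (voltage-dependent anion channels) pass metabolites through the outer membrane. In liver cells the carriers link the citric acid cycle to gluconeogenesis, fatty acid synthesis, ketone formation and the urea cycle.

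Total counts were 28866175 to 45120508 in WT, 27527854 to 33865386 in shTST and 22911380 to 27414142 in overTST. The members together took 0.478% to 0.521% of the counts in WT, 0.483% to 0.501% in shTST and 0.504% to 0.522% in overTST. Counts of mitochondrially encoded genes took 6.91% to 11.98% of a WT library, 6.84% to 8.65% of an shTST library and 10.8% to 11.7% of an overTST library, the highest share being that of WT replicate 4. Leaving these genes out of the fits ended no call of a member. All 11 hepatocyte and HepG2 markers (ALB, AFP and others) were above 1 CPM (the count relative to the scaled library size) on average, with summed levels of 24770 to 27960 CPM in WT, 26230 to 30740 in shTST and 23310 to 27980 in overTST. Of 6 fibroblast markers 2 were above 1 CPM and THY1 was at 0, and their sum was 21.6 to 25.2 CPM in WT, 17.0 to 19.4 in shTST and 15.9 to 17.9 in overTST. Of 5 leukocyte markers 2 were above 1 CPM, with sums of 6.48 to 9.44 over all libraries, and of 4 endothelial markers 1 was (KDR at 0), with sums of 2.51 to 3.29 in WT, 1.81 to 2.16 in shTST and 3.40 to 3.91 in overTST. Their part in the results was not tested. TST itself stood at 47.2 to 52.8 CPM in WT, 33.0 to 36.6 in shTST and 51.8 to 62.1 in overTST (log2 fold change against WT −0.52 ± 0.055 SE in shTST, edgeR adjusted p = 3.2e-06, and 0.24 ± 0.062 in overTST, edgeR adjusted p = 0.00384). The overexpressed sequence was codon optimized, so counts on the native gene need not include it.

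Levels per length, in CPM per kilobase of exonic length, spread over more than 3 orders of magnitude. In WT, SLC25A6, an ADP/ATP carrier, stood highest at 490 ± 18.9 (SD, n = 4) and supplied 26.3% of the summed level of all members. It was followed by SLC25A5, another ADP/ATP carrier, at 286 ± 10.8, by the citrate carrier SLC25A1 at 204 ± 13.1, by the porin VDAC1 at 116 ± 3.67 and by the pyruvate carrier subunit MPC1 at 86.6 ± 6.40. These 5 genes supplied 63.4% of the summed level, and the SD ranges of neighbours among the 5 did not meet. The range of MPC1 met that of the next gene, SLC25A39, at 75.5 ± 4.83. In WT 21 members were above 10 on this scale and 14 were below 1. UCP2 stood at 12.3 ± 0.573. This order depends on the exonic length used, which joins all annotated exons of a gene. By CPM alone the phosphate carrier SLC25A3 stood at 439 in WT, above SLC25A5 at 429. With 8896 exonic bases its level per length was 49.4 ± 2.25, rank 12.

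**Figure D1:**
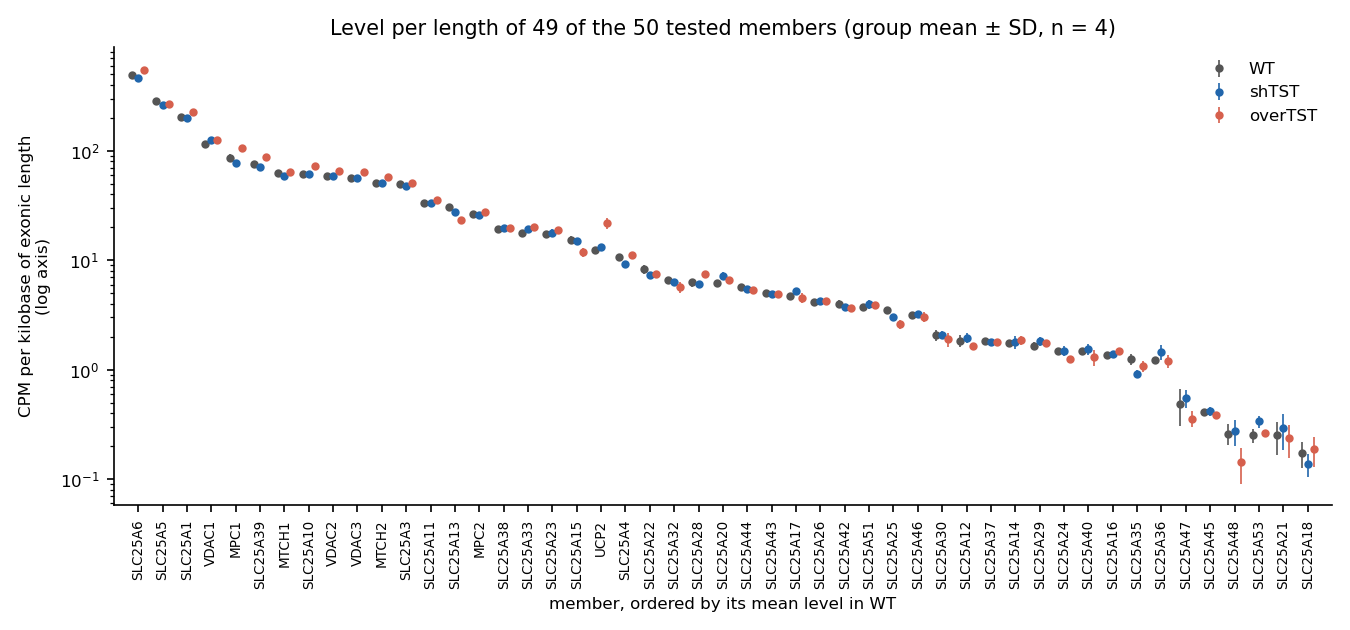
Level per length of 49 of the 50 tested members in CPM per kilobase of exonic length (vertical log axis), ordered by the WT mean, with group means and SD over 4 libraries of WT, shTST and overTST. SLC25A6 leads in every group, and UCP2 is the point that leaves the WT order most visibly in overTST.

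In each comparison 50 members had enough counts to be tested, and 8 had not. SLC25A2, an ornithine carrier gene, had no count in any library, which over 359610500 counts allows up to 0.00834 CPM (a floor of 3 counts, covering counting error only). The brown-fat uncoupling protein gene UCP1, the muscle gene UCP3, the brain carrier SLC25A27, the testis ADP/ATP carrier SLC25A31, and SLC25A34, SLC25A41 and SLC25A52 had between 1 and 83 counts over all 12 libraries. Differences were judged by the quasi-likelihood test of edgeR with Benjamini-Hochberg adjustment over all genes tested, written as edgeR adjusted p, and a gene was called at or under 0.05.

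In overTST against WT, 12 of the 50 members rose and 6 fell (24% and 12%), while 15.7% of all 14421 genes tested rose and 18.2% fell. The risers were UCP2, MPC1, SLC25A10, SLC25A28, SLC25A39, SLC25A33, VDAC3, MTCH2, SLC25A6, VDAC2, SLC25A1 and VDAC1. The fallers were SLC25A48, SLC25A25, SLC25A13, SLC25A15, SLC25A24 and SLC25A32. Apart from UCP2 and SLC25A48, each called difference was below 0.5 on the log2 scale. The median log2 fold change was 0.04 over the members tested and 0.0019 over all genes tested.

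In shTST against WT, 1 of the 50 members rose (SLC25A20) and 4 fell (SLC25A4, SLC25A13, SLC25A25 and SLC25A35), against a background of 6.69% of 14584 genes rising and 9.4% falling. As shares these were 2.0% and 8.0% of the members. By the unadjusted edgeR p, 13 of the 50 were under 0.05. Such values were common over all genes. Among the 14584 tested, the unadjusted edgeR p of SLC25A22 (0.0271) ranked 3565th and that of SLC25A6 (0.0583) ranked 4650th. With upper-quartile scaling the members split into 4 higher and 3 lower, and the calls over all genes moved from 975 higher and 1371 lower to 1284 higher and 1151 lower. The median log2 fold change was 0.0033 over the members and 0.0040 over all genes. Both comparisons share the WT libraries. Of the 50 members, 2 were called in both (SLC25A13 and SLC25A25, lower in each line) and 29 in neither.

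In shTST against overTST, fitted with all 12 libraries, 8 members were higher in shTST (16.9% of 14883 genes were) and 12 were lower (16.1% of all genes). The higher ones were SLC25A48, SLC25A15, SLC25A36, SLC25A24, SLC25A12, SLC25A13, SLC25A25 and SLC25A17. The lower ones were UCP2, MPC1, SLC25A28, SLC25A39, SLC25A6, SLC25A4, SLC25A10, SLC25A1, VDAC2, VDAC3, MTCH2 and MTCH1. Since these are bulk libraries, fewer cells with a transcript and less transcript per cell cannot be told apart.

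**Figure D2:**
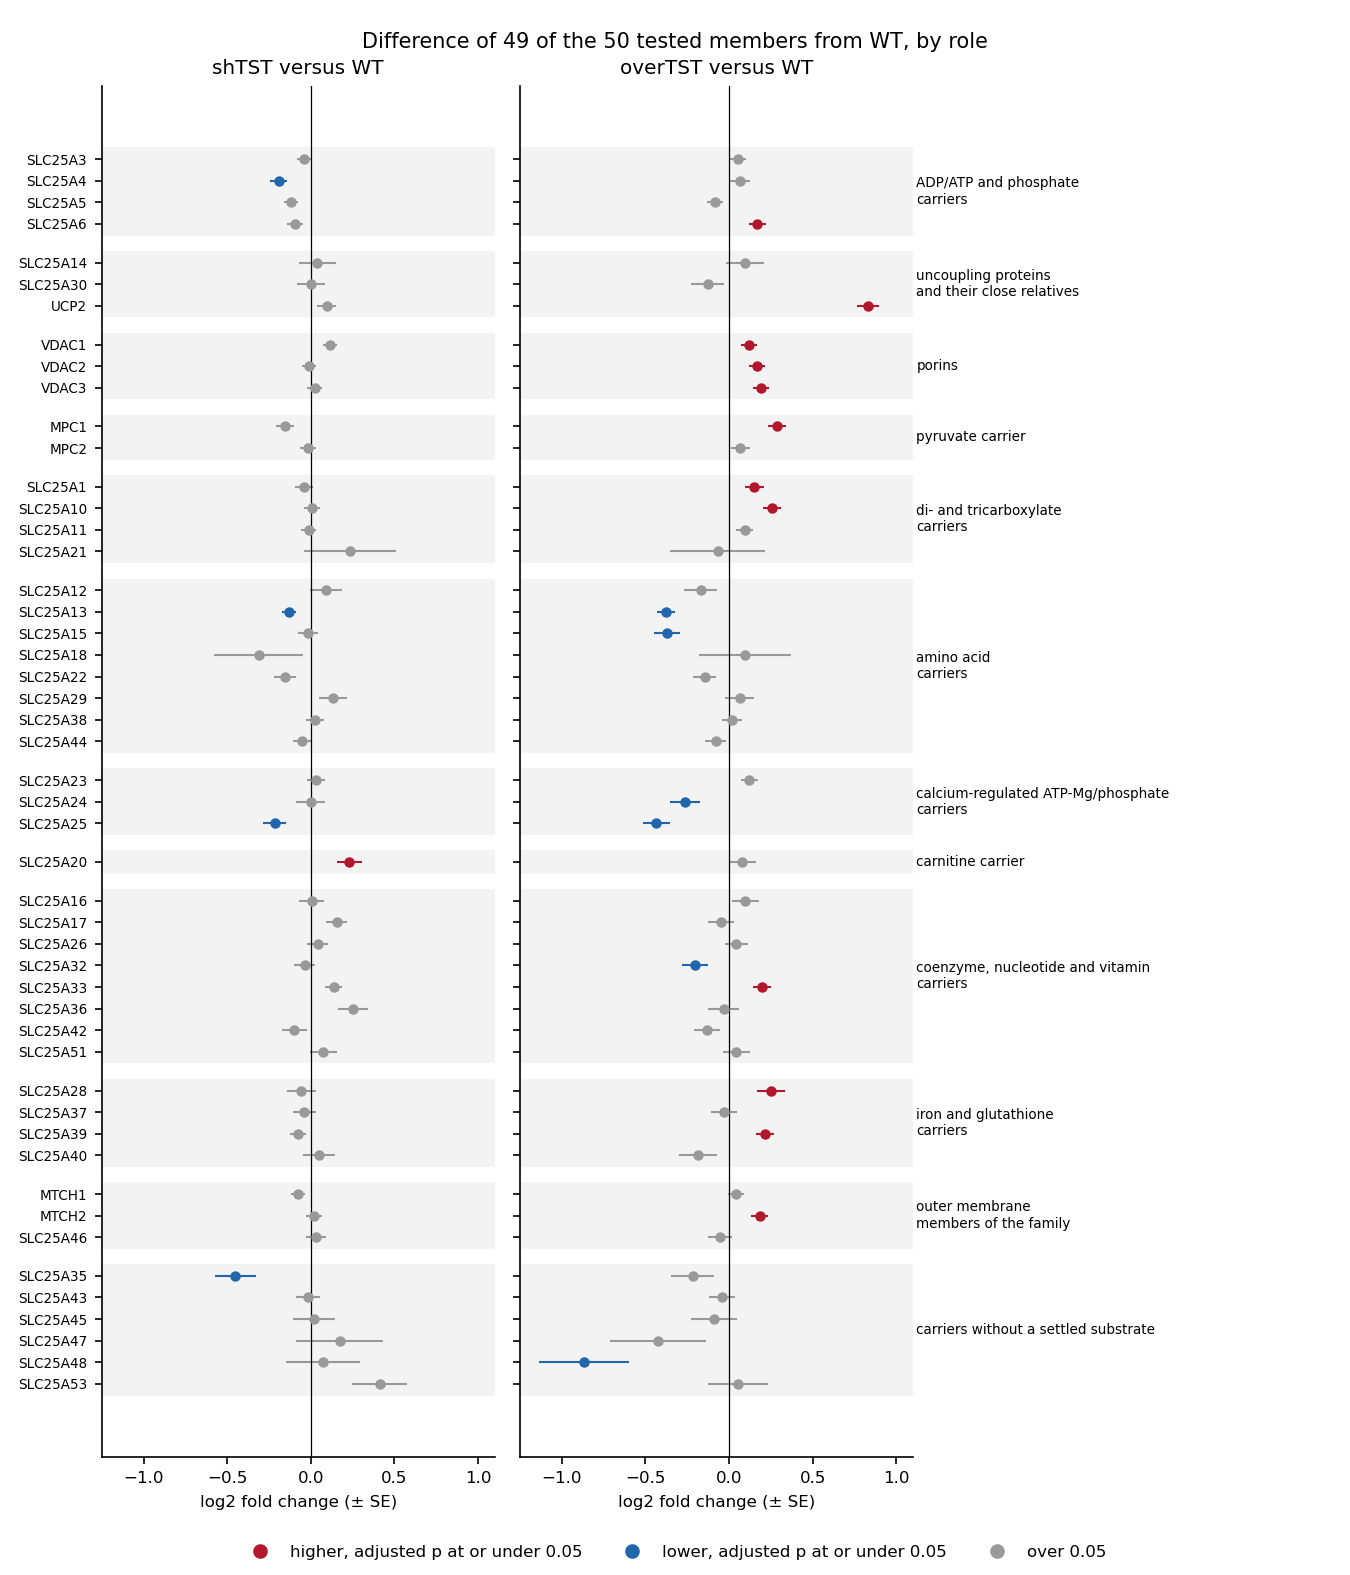
Log2 fold change against WT with its SE (horizontal axis) for 49 of the 50 tested members, grouped by role, for shTST on the left and overTST on the right. Coloured points passed an edgeR adjusted p of 0.05. In overTST the 3 porins lie to the right of 0 and both called amino acid carriers to the left, while in shTST most members lie near 0.

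Differences between overTST and WT moved with the exonic length of a gene across the whole transcriptome. The length of the transcripts expressed was not measured. Spearman's rho between exonic length and log2 fold change was −0.40 over all genes tested and −0.35 over the 50 members, whereas for shTST against WT it was −0.09 and 0.14. These are descriptions over genes of the same libraries. The 12 members that rose in overTST had a median exonic length of 2862 bases, the 6 that fell 4323 and the 32 not called 4694. With a length trend removed from each library, 7 of the 50 members rose and 6 fell in overTST instead of 12 and 6. Of the 18 calls without the correction 8 were lost, the faller SLC25A24 among them. SLC25A3 and SLC25A23 then rose and SLC25A5 fell, none of them called before. Over all 14421 genes tested, 2047 rose and 2058 fell with the trend removed. Between the lines, 7 members were higher and 8 lower in shTST than in overTST instead of 8 and 12. Of the 20 calls there 9 were lost. SLC25A20 (0.28, edgeR adjusted p = 0.00604), SLC25A32 (0.19, 0.0445) and SLC25A5 (0.11, 0.0487) became higher in shTST. SLC25A3 became lower (−0.20, edgeR adjusted p = 0.00125). Over all 14883 genes tested there, 1928 were higher and 2214 lower. The part of exonic length in these differences was not tested further, and each result below is given with its length-corrected value where that ended the call.

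**Figure D3:**
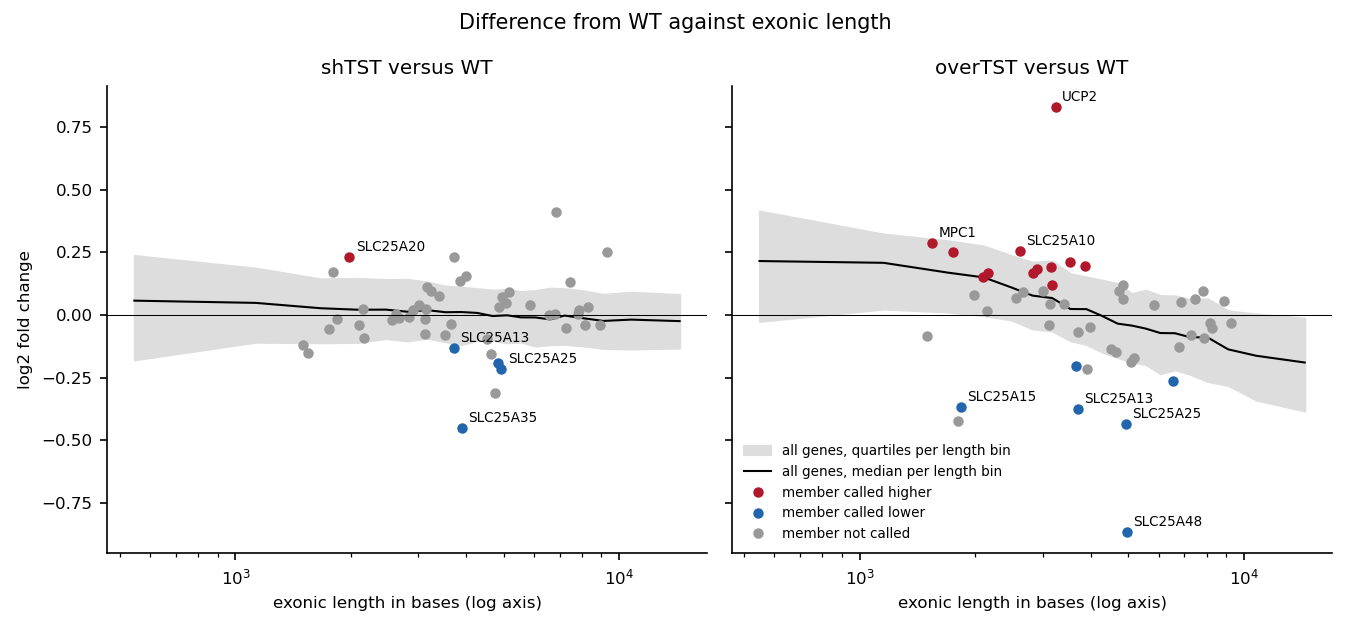
Log2 fold change against WT (vertical axis) plotted over exonic length in bases (log axis) for 49 of the 50 tested members, with the median and quartiles of all genes in 20 length bins. In overTST the all-gene median falls from 0.22 in the shortest bin to −0.19 in the longest, and UCP2, SLC25A13, SLC25A15 and SLC25A25 lie outside the quartile band.

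UCP2, the uncoupling protein of many tissues, carried the largest rise of the group. It was counted at 40.1, 37.9, 38.8 and 42.2 CPM in WT, at 39.3, 41.5, 45.6 and 43.2 in shTST and at 60.9, 70.4, 72.1 and 79.7 in overTST. Every overTST library lay above every WT and shTST library, whereas WT and shTST overlapped. UCP2 rose 1.78-fold in overTST (log2 fold change 0.83 ± 0.067 SE, edgeR adjusted p = 7.79e-09) and ranked 10th by p among the 14421 genes tested. The call was kept with the length correction (0.78, edgeR adjusted p = 1.07e-08) and in all 18 alternatives, where the log2 fold change ran from 0.77 to 0.90. In shTST it was not called (0.09 ± 0.056, edgeR adjusted p = 0.273). For shTST against overTST the log2 fold change of UCP2 was −0.74 ± 0.066 (edgeR adjusted p = 1.74e-08). Its relatives SLC25A14 and SLC25A30 passed in none of the 3 comparisons, with log2 fold changes between −0.13 and 0.13.

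UCP2 lies on chr11:73974667-73983307, minus strand. The bases upstream of the gene, within 250 bases of its RefSeq start, are shown because UCP2 carried the largest rise. They are chr11:73983308-73983452 (GRCh38.p14, RefSeq), written 5′ to 3′ on the minus strand, with the CCAAT letters or their reverse complement ATTGG in capitals.
UCP2: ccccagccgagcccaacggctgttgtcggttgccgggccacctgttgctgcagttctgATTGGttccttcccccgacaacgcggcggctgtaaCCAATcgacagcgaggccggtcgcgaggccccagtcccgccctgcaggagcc
Over the 250 upstream bases, CCAAT on either strand was found in 32.7% of 20981 RefSeq promoters of protein-coding genes and in 19 of 49 members with an entry (38.8%). Of the members called in overTST, 6 of 11 risers and 1 of 5 fallers with an entry held it. The letters GCGCATGC, the core of the NRF1 motif, were in 3.32% of all promoters and in 1 of the 49, CCGGAAGT (GABP) in 4.48% and 3 of 49, and TGATGNAA (ATF4) in 2.35% and 1 of 49, each on either strand. SLC25A2, SLC25A16, SLC25A30, SLC25A32, SLC25A35, SLC25A37, SLC25A41 and VDAC3 had no entry.

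The ADP/ATP carriers exchange cytosolic ADP for matrix ATP, and SLC25A3 brings in the phosphate. SLC25A4, the isoform of heart and muscle, was counted at 50.8, 51.9, 55.5 and 48.5 CPM in WT, at 45.3, 44.3, 45.2 and 46.0 in shTST and at 50.7, 55.6, 57.6 and 52.4 in overTST. All 4 shTST libraries were below all others. SLC25A4 fell by 0.19 ± 0.051 on the log2 scale in shTST (edgeR adjusted p = 0.0126) and was the only one of the 5 calls of that comparison kept in all 18 alternatives. Against overTST its log2 fold change was −0.26 ± 0.054 (edgeR adjusted p = 0.000651).

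SLC25A6 stood at 1022, 1031, 1080 and 1108 CPM in WT, at 957, 996, 1042 and 979 in shTST and at 1118, 1224, 1196 and 1231 in overTST. Its overTST libraries lay above those of both other groups, and WT and shTST overlapped. SLC25A6 rose by 0.17 ± 0.052 in overTST (edgeR adjusted p = 0.0133), and with the length correction this was 0.04 (edgeR adjusted p = 0.56). For shTST against overTST it was −0.26 ± 0.047, and this passed with the length correction too (−0.15, edgeR adjusted p = 0.011).

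SLC25A5, the growth-linked isoform, was counted at 428, 407, 442 and 440 CPM in WT, at 396, 393, 394 and 395 in shTST and at 404, 394, 411 and 411 in overTST. The shTST libraries lay below the WT ones, while the overTST libraries overlapped both. The log2 fold change in shTST was −0.12 ± 0.042 (edgeR adjusted p = 0.0542), past the threshold with DESeq2 (0.018) and with the length correction (0.0124). In overTST it was −0.08 ± 0.047 (edgeR adjusted p = 0.181), and with the length correction, which moves this gene of 1500 exonic bases, it was −0.25 (edgeR adjusted p = 0.000167). SLC25A6 made up 61.5% to 62.8% of the summed level per length of the 3 ADP/ATP carriers in WT, 61.8% to 63.9% in shTST and 64.9% to 67.4% in overTST. These shares were highest in the 4 overTST libraries. SLC25A3 was not called in either comparison with WT (−0.04 ± 0.044 in shTST and 0.05 ± 0.048 in overTST, from 410 to 462 CPM), though with the length correction its value in overTST was 0.18 (edgeR adjusted p = 0.00731). SLC25A5 and SLC25A6 have near-identical copies elsewhere in the genome, and how reads shared with such copies were counted is not given in the sources used here.

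SLC25A4 lies on chr4:185143241-185150382, plus strand. The bases before it, chr4:185143016-185143240 (GRCh38.p14, RefSeq, plus strand), are shown because SLC25A4 made the steadiest call in shTST, with the CCAAT letters in capitals.
SLC25A4: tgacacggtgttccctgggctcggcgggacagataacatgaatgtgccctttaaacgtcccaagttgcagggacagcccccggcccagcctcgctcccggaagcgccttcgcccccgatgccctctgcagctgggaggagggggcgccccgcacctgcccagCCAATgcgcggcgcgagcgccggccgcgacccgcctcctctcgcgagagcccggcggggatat

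**Figure D4:**
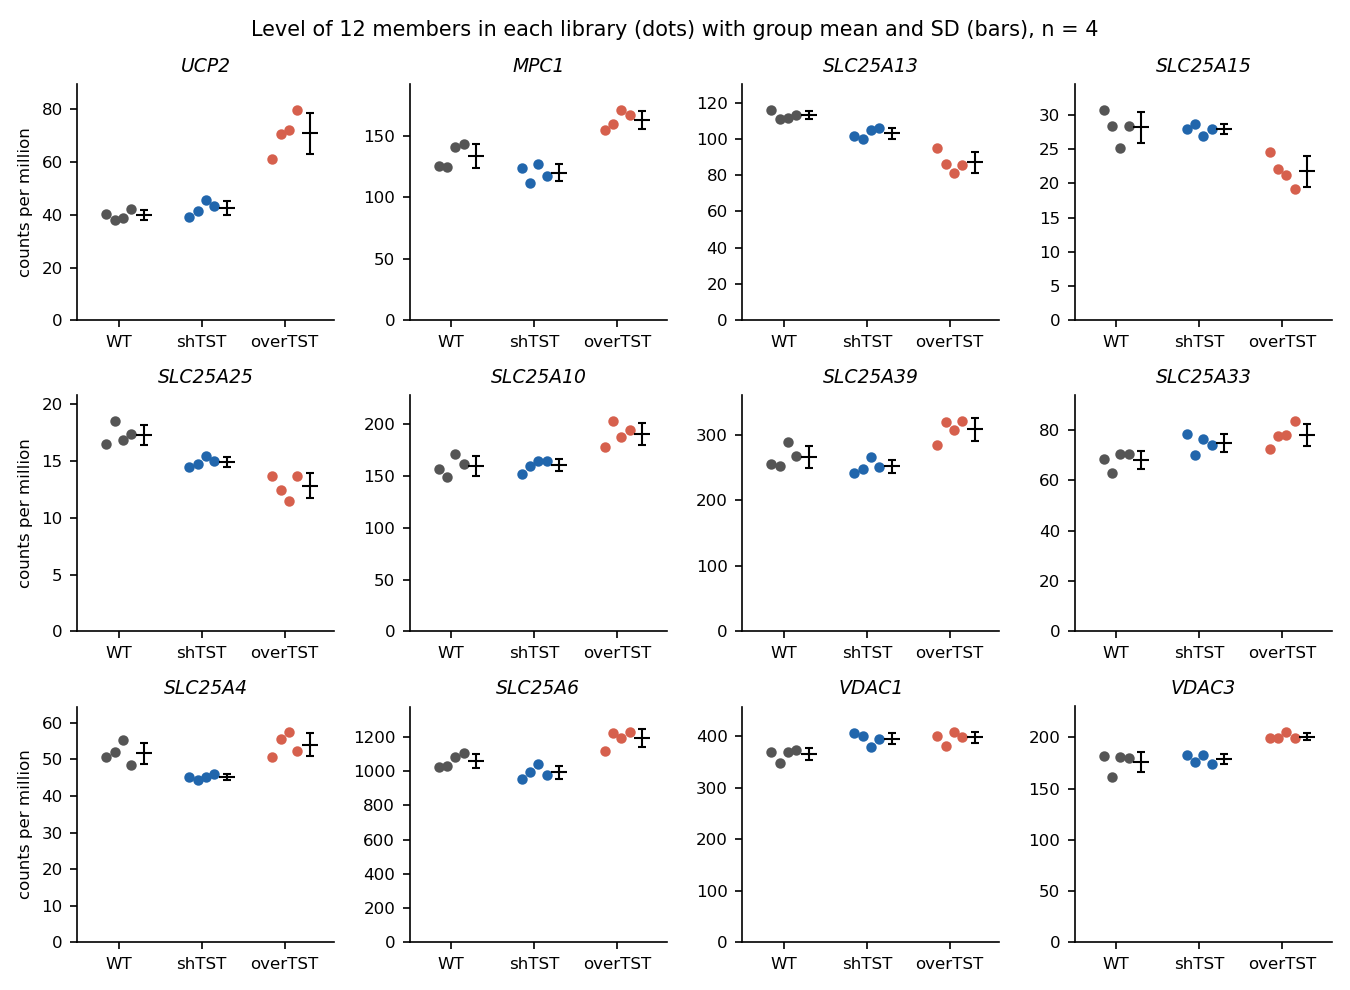
CPM (vertical axes, from 0) of 12 members in each of the 12 libraries, 4 per group, with the group mean and SD beside the dots. UCP2 in overTST (60.9 to 79.7 CPM) and SLC25A13 in overTST (81.3 to 95.1 CPM) lie apart from both other groups.

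All 3 porins rose in overTST and none was called in shTST. VDAC3 was counted at 182, 162, 181 and 180 CPM in WT, at 183, 176, 183 and 174 in shTST and at 199, 199, 205 and 199 in overTST. The overTST libraries lay above both other groups, which overlapped. VDAC3 rose by 0.19 ± 0.049 on the log2 scale (edgeR adjusted p = 0.00401) and kept its call in all alternatives, with 0.13 (edgeR adjusted p = 0.0354) under the length correction.

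VDAC2, which also restrains the apoptosis protein BAK, was at 165, 158, 168 and 173 CPM in WT, at 165, 171, 159 and 165 in shTST and at 194, 183, 188 and 183 in overTST. It rose by 0.17 ± 0.048 in overTST (edgeR adjusted p = 0.00782), above all WT libraries, and the length correction ended the call (0.09, edgeR adjusted p = 0.159). It likewise ended the VDAC2 call for shTST against overTST (−0.18 ± 0.043, edgeR adjusted p = 0.00251, and −0.11, edgeR adjusted p = 0.0644, once corrected). VDAC1, the docking site of hexokinase, was at 370, 348, 370 and 374 CPM in WT, at 406, 400, 380 and 395 in shTST and at 401, 382, 409 and 399 in overTST. Both lines lay above every WT library, by 0.12 ± 0.047 in overTST (edgeR adjusted p = 0.0495) and 0.11 ± 0.042 in shTST (edgeR adjusted p = 0.0711, not called; 0.0248 with DESeq2). The VDAC1 call in overTST was lost on leaving out any 1 of 7 libraries, that is each one but overTST replicate 2 (edgeR adjusted p = 0.0624 to 0.149), and with the length correction (0.06, edgeR adjusted p = 0.325). VDAC1 made up 49.97% to 50.6% of the summed porin level per length in WT, 51.2% to 52.4% in shTST and 48.5% to 49.6% in overTST, with no overlap between the groups.

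The pyruvate carrier is a heterodimer of MPC1 and MPC2. MPC1 was counted at 126, 125, 141 and 143 CPM in WT, at 124, 112, 127 and 117 in shTST and at 155, 159, 171 and 167 in overTST. All overTST libraries lay above all WT libraries, and WT and shTST overlapped. MPC1 rose by 0.29 ± 0.055 in overTST (edgeR adjusted p = 0.00026), a call that the length correction ended (0.12, edgeR adjusted p = 0.0601). In shTST its log2 fold change was −0.15 ± 0.053, just outside the threshold (edgeR adjusted p = 0.0504) and inside it with DESeq2 (0.0442) and with the length correction (0.00908). For shTST against overTST MPC1 had a log2 fold change of −0.44 ± 0.054 (edgeR adjusted p = 1.87e-06), and this held in all 18 alternatives (−0.30 with the length correction, edgeR adjusted p = 3.59e-05).

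MPC2 was at 66.2, 64.7, 72.7 and 66.4 CPM in WT, at 67.8, 64.6, 67.4 and 66.4 in shTST and at 72.0, 75.9, 67.8 and 67.1 in overTST. The 3 groups overlapped, and MPC2 was called in no comparison (−0.02 ± 0.048 in shTST and 0.07 ± 0.056 in overTST). The ratio of MPC1 to MPC2 per length was 3.14 to 3.56 in WT, 2.86 to 3.11 in shTST and 3.47 to 4.17 in overTST. The shTST ratios lay below the WT ones, and overTST and WT overlapped. Of the exonic length of MPC2, 22.5% is shared with DCAF6 on the other strand, and whether the counting used strand is not given in the sources used here.

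MPC1 lies on chr6:166364919-166383013, minus strand. The bases upstream of it, chr6:166383014-166383190 (GRCh38.p14, RefSeq, minus strand), are shown because MPC1 differed most between the lines after UCP2 among members above 10 CPM, with the reverse complement of CCAAT in capitals.
MPC1: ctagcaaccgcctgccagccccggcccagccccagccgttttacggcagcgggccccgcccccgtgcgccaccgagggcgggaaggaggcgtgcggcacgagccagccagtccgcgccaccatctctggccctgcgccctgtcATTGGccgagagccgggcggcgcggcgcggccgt

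Among the 4 di- and tricarboxylate carriers 2 rose in overTST and none was called in shTST. SLC25A10, which exchanges malate and succinate for phosphate, was counted at 157, 149, 171 and 162 CPM in WT, at 152, 159, 165 and 164 in shTST and at 178, 203, 187 and 194 in overTST. The overTST libraries lay above the others. It rose by 0.26 ± 0.053 (edgeR adjusted p = 0.000583) and kept its call in all alternatives (0.16 with the length correction, edgeR adjusted p = 0.0108). Of its exonic length, 46.6% is shared with AC139530.2 on the same strand. SLC25A1, the citrate exporter that feeds fatty acid synthesis, was at 395 to 461 CPM in WT, 394 to 457 in shTST and 425 to 514 in overTST. Its rise in overTST of 0.15 ± 0.057 (edgeR adjusted p = 0.0444) was lost without WT replicates 1, 2 or 4 or overTST replicates 2, 3 or 4 (edgeR adjusted p = 0.0634 to 0.178) and with the length correction (0.02, edgeR adjusted p = 0.818). For shTST against overTST SLC25A1 was at −0.19 ± 0.058 (edgeR adjusted p = 0.012), a call lost without overTST replicate 4 (0.0624) and after correction for length (−0.07, edgeR adjusted p = 0.304). SLC25A11, the 2-oxoglutarate/malate carrier, and SLC25A21 were called in no comparison.

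Among the amino acid carriers 2 fell in overTST and 1 fell in shTST. SLC25A13 (citrin), the aspartate/glutamate carrier of liver that serves the malate-aspartate shuttle and the urea cycle, was counted at 116, 111, 112 and 113 CPM in WT, at 102, 99.8, 105 and 106 in shTST and at 95.1, 86.1, 81.3 and 85.7 in overTST. The 3 groups did not overlap, with WT highest and overTST lowest. SLC25A13 fell by 0.38 ± 0.053 on the log2 scale in overTST (edgeR adjusted p = 8.82e-06), and this was kept in all alternatives (−0.40 with the length correction). In shTST it fell by 0.13 ± 0.042 (edgeR adjusted p = 0.0332), a call lost without WT replicates 1 or 4 or any 1 of the shTST libraries (edgeR adjusted p = 0.0529 to 0.122). Between the lines it was higher in shTST by 0.24 ± 0.048 (edgeR adjusted p = 0.000393). Its paralog SLC25A12 (aralar) was at 8.28 to 11.3 CPM in WT, 8.93 to 11.4 in shTST and 7.91 to 8.88 in overTST. SLC25A12 was not called against WT in either line. It was higher in shTST than in overTST by 0.26 ± 0.099 (edgeR adjusted p = 0.0439), which was lost without any 1 of 7 libraries, each one but shTST replicate 3 (0.0537 to 0.157), and with the length correction (0.23, edgeR adjusted p = 0.0852). SLC25A13 supplied 93.5% to 95.0% of the summed level per length of the pair in WT and 92.5% to 94.2% in the other groups.

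SLC25A15, the ornithine carrier of the urea cycle, was counted at 30.7, 28.4, 25.2 and 28.3 CPM in WT, at 27.9, 28.7, 26.9 and 27.9 in shTST and at 24.6, 22.1, 21.2 and 19.2 in overTST. The overTST libraries lay below all others, and WT and shTST overlapped. It fell by 0.37 ± 0.078 in overTST (edgeR adjusted p = 0.000726), and by 0.52 with the length correction (edgeR adjusted p = 5.4e-05), in all alternatives on the same side of the threshold. In shTST the log2 fold change was −0.02 ± 0.062. Against overTST, SLC25A15 was higher in shTST by 0.35 ± 0.072 (edgeR adjusted p = 0.000535). The glutamate carriers SLC25A18 and SLC25A22, the basic amino acid carrier SLC25A29, the glycine carrier SLC25A38, which supplies haem synthesis, and the branched-chain amino acid carrier SLC25A44 were called in no comparison. SLC25A38 stood at 39.0 to 45.2 CPM in WT, 40.3 to 44.3 in shTST and 40.9 to 43.6 in overTST. Its log2 fold changes of 0.02 ± 0.055 in shTST and 0.02 ± 0.059 in overTST were smaller than their errors.

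The calcium-regulated ATP-Mg/phosphate carriers adjust the matrix adenine nucleotide pool. SLC25A25 was counted at 16.5, 18.6, 16.9 and 17.4 CPM in WT, at 14.5, 14.8, 15.5 and 15 in shTST and at 13.7, 12.5, 11.4 and 13.7 in overTST. The 3 groups did not overlap. SLC25A25 fell by 0.44 ± 0.081 in overTST (edgeR adjusted p = 0.000193), in all alternatives, and by 0.22 ± 0.067 in shTST (edgeR adjusted p = 0.0289). The call in shTST was lost without WT replicates 2 or 4 or shTST replicates 1, 2 or 4 (edgeR adjusted p = 0.0697 to 0.092). Between the lines SLC25A25 was higher in shTST by 0.22 ± 0.075 (edgeR adjusted p = 0.0264), a call lost without shTST replicates 3 or 4 or overTST replicates 2 or 3 (0.0543 to 0.119) and after correction for length (0.19, edgeR adjusted p = 0.0508). Of its exonic length, 13.5% is shared with its antisense gene SLC25A25-AS1, and 16.2% with genes of the other strand in all.

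SLC25A24 stood at 9.10 to 10.2 CPM in WT, 8.61 to 11.0 in shTST and 7.58 to 8.92 in overTST. It fell by 0.26 ± 0.092 in overTST (edgeR adjusted p = 0.0289), lost without WT replicates 2, 3 or 4 or overTST replicates 2, 3 or 4 (edgeR adjusted p = 0.0502 to 0.0949) and with the length correction (−0.18, edgeR adjusted p = 0.13). Its excess in shTST over overTST of 0.26 ± 0.092 (edgeR adjusted p = 0.0285) was lost without shTST replicates 1 or 4 or overTST replicates 2, 3 or 4 (0.0582 to 0.114) and after correction for length (0.20, edgeR adjusted p = 0.105). SLC25A23, the most abundant of the 3 per length, was not called in any comparison (0.12 ± 0.052 in overTST, edgeR adjusted p = 0.0769; 0.0261 with the length correction).

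SLC25A20, the carnitine/acylcarnitine carrier that admits long-chain fatty acids to oxidation, was the single member that rose in shTST. It was counted at 12.8, 11.5, 12.3 and 12.5 CPM in WT, at 13.1, 14.1, 15.3 and 14.9 in shTST and at 11.5, 13.4, 13.6 and 13.4 in overTST. The shTST libraries lay above the WT ones, by 0.23 ± 0.074 on the log2 scale (edgeR adjusted p = 0.0366), and overTST overlapped both. The call was lost without WT replicates 2, 3 or 4 or shTST replicates 2, 3 or 4 (edgeR adjusted p = 0.0513 to 0.107).

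Of 9 tested carriers of coenzymes, nucleotides and vitamins, 1 rose and 1 fell in overTST, and none was called in shTST. SLC25A33, which brings pyrimidine nucleotides into mitochondria, was counted at 68.4, 62.8, 70.5 and 70.3 CPM in WT, at 78.3, 70.0, 76.4 and 74.0 in shTST and at 72.6, 77.6, 77.9 and 83.6 in overTST. It rose by 0.20 ± 0.056 in overTST (edgeR adjusted p = 0.00813), in all alternatives, and its overTST libraries lay above the WT ones. Its value in shTST was 0.14 ± 0.050 (edgeR adjusted p = 0.0651), with 1 shTST library inside the WT range. SLC25A32, the folate and FAD carrier, was at 22.5 to 26.0 CPM in WT, 22.6 to 24.4 in shTST and 18.4 to 23.8 in overTST. It fell by 0.20 ± 0.078 in overTST (edgeR adjusted p = 0.0453) although the groups overlapped, and this was lost without WT replicates 1, 2 or 4 or overTST replicates 1, 2 or 4 (edgeR adjusted p = 0.0526 to 0.171).

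SLC25A36, a relative of SLC25A33, was at 10.9, 11.4, 11.4 and 11.5 CPM in WT, at 16.3, 13.2, 11.4 and 13.2 in shTST and at 13.1, 9.70, 11.1 and 10.2 in overTST. The shTST value was highest in replicate 1, and WT and shTST overlapped (0.25 ± 0.090, edgeR adjusted p = 0.0589). The difference from overTST of 0.28 ± 0.100 (edgeR adjusted p = 0.0304) was lost without shTST replicate 1 or overTST replicates 2, 3 or 4 (edgeR adjusted p = 0.0612 to 0.167) and with the length correction (0.17, edgeR adjusted p = 0.184). SLC25A17, a coenzyme A and nucleotide carrier of peroxisomes, was 0.20 ± 0.071 higher in shTST than in overTST (edgeR adjusted p = 0.0314). That call was lost without shTST replicates 2, 3 or 4 or overTST replicates 2, 3 or 4 (0.0503 to 0.13). SLC25A16, SLC25A26 (S-adenosylmethionine), SLC25A42 (coenzyme A) and SLC25A51 (NAD) were called in no comparison.

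Among the carriers linked to iron and glutathione, SLC25A39 and SLC25A28 rose in overTST. SLC25A39, needed for glutathione import into mitochondria, was counted at 255, 253, 290 and 267 CPM in WT, at 242, 248, 266 and 251 in shTST and at 284, 320, 308 and 322 in overTST. WT replicate 3 lay above overTST replicate 1, and the other 3 overTST libraries lay above all WT libraries. SLC25A39 rose by 0.21 ± 0.053 (edgeR adjusted p = 0.00313), in all alternatives (0.18 with the length correction, edgeR adjusted p = 0.00964). For shTST against overTST it was −0.29 ± 0.050 (edgeR adjusted p = 0.000101). SLC25A40, its paralog, stood at 7.12 to 7.95 CPM in WT, and its log2 fold change in overTST was −0.19 ± 0.114 (edgeR adjusted p = 0.22). SLC25A28 (mitoferrin 2), an iron importer, was at 9.81 to 12.02 CPM in WT, 9.38 to 11.2 in shTST and 12.4 to 14.1 in overTST. Its rise of 0.25 ± 0.085 (edgeR adjusted p = 0.0256) was lost without WT replicates 1 or 4 or overTST replicates 2 or 3 (edgeR adjusted p = 0.052 to 0.0981) and with the length correction (0.09, edgeR adjusted p = 0.434). The difference of SLC25A28 between the lines, −0.31 ± 0.084 for shTST against overTST (edgeR adjusted p = 0.00647), did not pass once corrected for length (−0.17, edgeR adjusted p = 0.126). SLC25A37 (mitoferrin 1) was called in no comparison.

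MTCH1, MTCH2 and SLC25A46 are members of the family in the outer membrane, where MTCH2 inserts other proteins and SLC25A46 takes part in membrane dynamics. MTCH2 was counted at 147, 135, 153 and 151 CPM in WT, at 152, 155, 141 and 145 in shTST and at 163, 164, 176 and 163 in overTST. The overTST libraries lay above all others. MTCH2 rose by 0.18 ± 0.051 in overTST (edgeR adjusted p = 0.00649), and the length correction ended the call (0.11, edgeR adjusted p = 0.086). Its difference between the lines (−0.16 ± 0.048 for shTST against overTST, edgeR adjusted p = 0.00981) was lost without overTST replicate 3 (0.0523) and with the length correction (−0.10, edgeR adjusted p = 0.113). MTCH1, at 189 to 204 CPM in WT, 182 to 189 in shTST and 191 to 214 in overTST, was not called against WT in either line. Its difference between the lines (−0.12 ± 0.044, edgeR adjusted p = 0.0397) was lost without any 1 shTST library or overTST replicates 2 or 4 (0.0529 to 0.164), with the length correction (−0.06, edgeR adjusted p = 0.269) and with no filter on low counts (−0.10, edgeR adjusted p = 0.221). SLC25A46 was called in no comparison.

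The carriers not placed in any other role group together summed to 26.2 to 29.3 CPM in WT. SLC25A48 was counted at 0.953, 1.47, 1.56 and 1.17 CPM in WT, at 1.22, 1.91, 1.1 and 1.23 in shTST and at 0.709, 0.339, 0.908 and 0.864 in overTST. Every overTST library was below every library of the other groups. The fall of 0.87 ± 0.271 in overTST (edgeR adjusted p = 0.015) rested on 417 counts over all 12 libraries, and it was lost without WT replicate 2 (0.0506) or overTST replicate 2 (0.0727). SLC25A48 was higher in shTST than in overTST by 0.94 ± 0.276 (edgeR adjusted p = 0.0101), lost without shTST replicate 2 (0.0537).

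SLC25A35 was at 5.23, 4.81, 4.04 and 5.34 CPM in WT, at 3.54, 3.42, 3.97 and 3.25 in shTST and at 3.69, 3.90, 4.50 and 4.68 in overTST. The shTST libraries lay below the WT ones and overTST overlapped both. SLC25A35 fell by 0.45 ± 0.122 in shTST (edgeR adjusted p = 0.0141), lost without WT replicate 4 (0.0535) or shTST replicate 4 (0.052). It shares 33.2% of its exonic length with RANGRF. SLC25A43, SLC25A45, SLC25A47 and SLC25A53 were called in no comparison.

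Genes that import, accompany or work beside the carriers were read as 3 further lists. Of 13 genes of the import route for carrier proteins (receptors TOMM20, TOMM22 and TOMM70, the small TIM chaperones and the TIM22 complex), 6 rose and 1 fell in overTST (46.2% and 7.69%, against 15.7% and 18.2% of all genes), with a median log2 fold change of 0.17. These genes are short, with a median exonic length of 2629 bases against 4479 over all genes tested. With the length correction, applied to these lists after the data were seen, 3 rose and 1 fell in overTST and the median was 0.05. The faller was then TIMM10B (−0.21, edgeR adjusted p = 0.00988). Without the correction it was TOMM70 (−0.13, edgeR adjusted p = 0.0437, and 0.19 once corrected). Over all 14421 genes tested, 2047 rose and 2058 fell in overTST with that correction. In shTST 1 rose (7.69%, against 6.69% of all genes) and the median was 0.0022. The smallest p-values in overTST belonged to the chaperone TIMM8B (0.49 ± 0.071, edgeR adjusted p = 1.39e-05, with 0.31 once corrected for length) and the channel TOMM40 (0.28 ± 0.051, edgeR adjusted p = 0.000168, with 0.25 once corrected), and both kept their calls. In shTST TIMM8A rose by 0.29 ± 0.065 (edgeR adjusted p = 0.0043). Of 16 other transporters of the inner membrane, 3 rose and 3 fell in overTST (18.8% each way), and 1 rose and 2 fell in shTST (6.25% and 12.5%). These shares are near those of all genes, which were 15.7% and 18.2% in overTST and 6.69% and 9.4% in shTST. LETM1, an ion exchanger, was lower in both lines (−0.24 ± 0.050 in overTST, edgeR adjusted p = 0.000818, and −0.20 ± 0.045 in shTST, edgeR adjusted p = 0.00457), and correction for length ended the call in overTST (−0.12, edgeR adjusted p = 0.054). ABCB10 fell by 0.43 ± 0.069 in overTST (edgeR adjusted p = 5.17e-05). SFXN2, a sideroflexin, rose in both lines, by 0.31 ± 0.066 in shTST (edgeR adjusted p = 0.00269) and by 0.27 in overTST (edgeR adjusted p = 0.0054).

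Of 14 tested partners of the carriers and porins, 2 rose and 1 fell in overTST (14.3% and 7.14%), and 1 rose and 2 fell in shTST (7.14% and 14.3%). Over all genes the shares were 15.7% and 18.2% in overTST and 6.69% and 9.4% in shTST. TSPO, an outer membrane protein found with the porins, rose by 1.07 ± 0.173 in overTST (edgeR adjusted p = 4.72e-05). Hexokinase 2 (HK2), which docks on VDAC1, was lower in both lines (−0.27 ± 0.060 in overTST, edgeR adjusted p = 0.00127, and −0.17 ± 0.051 in shTST, edgeR adjusted p = 0.0219). Pyruvate carboxylase (PC), which acts on the pyruvate that the carrier brings in, fell by 0.29 ± 0.046 in shTST (edgeR adjusted p = 0.000215).

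Summed over role groups, the CPM of the uncoupling proteins and their relatives was 58.3 to 59.6 in WT, 60.6 to 64.1 in shTST and 81.7 to 97.0 in overTST. The amino acid carriers summed to 278 to 291 CPM in WT, 264 to 277 in shTST and 241 to 256 in overTST. The porins summed to 668 to 727, 722 to 755 and 764 to 802 CPM in the same order. The overTST libraries were the highest for the uncoupling and porin sums and the lowest for the amino acid carriers. Most of the uncoupling sum was UCP2, with a mean of 39.8 CPM in WT and 70.8 in overTST. Its relatives SLC25A14 and SLC25A30 were called in no comparison. The sum over all 58 members was 4738 to 5102 CPM in WT, 4759 to 4915 in shTST and 5161 to 5436 in overTST. None of these sums was corrected for length. That correction ended the overTST calls of VDAC1, VDAC2 and SLC25A6, while UCP2, VDAC3, SLC25A13 and SLC25A15 kept theirs.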

How the data were processed

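For each of the 12 libraries the authors deposited whole-number read counts per Ensembl gene, not normalized, with exonic lengths. The submitters' processing notes name Trimmomatic 0.36, STAR 2.5.2b, featureCounts of Subread 1.5.2 and GRCh38. Use of strand and of multi-mapped reads is not given in the sources used here. Groups came from the labels. The members and lists were chosen with earlier results of these data known. Both lines were set against WT with 8 libraries per fit, and against each other with all 12 (edgeR 4.0.16, R 4.3.3, filterByExpr, TMM, quasi-likelihood test, Benjamini-Hochberg over all genes tested, threshold 0.05). SE values were derived from the F statistic. CPM values used TMM over all 12 libraries. Depth was 22911380 to 45120508 counts per library, and the biological coefficient of variation was 5.85%, 6.41% and 6.02%. Values in every library were planned for UCP2 and for up to 8 higher and 8 lower called members per comparison with WT. They were also planned for the ADP/ATP carriers, SLC25A3, MPC, MTCH and VDAC genes. Of these, SLC25A3, MTCH1, SLC25A24, SLC25A28 and SLC25A32 are given as ranges. SLC25A36 and SLC25A48 are given by library in addition. Further members were named by role. Alternatives were DESeq2 1.42.0, RLE and upper-quartile scaling, no filtering, filtering at 1 CPM exceeded by 4 or more libraries, another set of libraries in the fit, a length correction (lowess, span 0.3), leaving out mitochondrially encoded genes, a replicate block and leaving out each library. The values of 1 member are not reported here. Procedures were tested on simulated counts. Python 3.11.15 and matplotlib 3.10.9 were used.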

Additional observations from a re-analysis of the deposited data

Results flagged for a closer look

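In 7 of 84 groups of 4 libraries checked, over 28 named members in 3 groups each, 1 library stood far from the other 3 in its group. Chance alone marks about 1 in 20 such groups. MTCH2 was at 176 CPM in overTST replicate 3 (163 to 164 in the others). SLC25A20 was at 11.5 CPM in overTST replicate 1 (13.4 to 13.6 in the others). SLC25A36 was at 10.9 CPM in WT replicate 1 (11.4 to 11.5 in the others). SLC25A48 was at 1.91 CPM in shTST replicate 2 (1.1 to 1.23 in the others). WT replicate 2 was low for VDAC1 at 348 CPM (370 to 374 in the others) and for VDAC3 at 162 CPM (180 to 182 in the others). VDAC3 was at 205 CPM in overTST replicate 3 (199 in each of the others). Why these libraries stood apart was not tested.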

How the results depend on the processing

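Over 18 alternatives per comparison no called member changed sign. Calls kept in every alternative were 1 of 5 for shTST against WT, 8 of 18 for overTST against WT and 9 of 20 between the lines. The number of members called for shTST against WT was 5, and it was 10 with DESeq2, 9 with the length correction, 10 with the replicate block and 10 with both the replicate block and the length correction. The calls over all genes in these settings were 2510, 2615, 2980 and 3125, against 2346. Without 1 library the number of members ran from 1 to 5 (1 without shTST replicate 4, 2 without WT replicate 4, 3 without shTST replicate 1 or 2). The calls over all genes then ran from 1513 (without shTST replicate 1) to 2336. The median log2 fold change of the members in shTST was 0.025 with upper-quartile scaling and −0.015 (without WT replicate 2) to 0.013 without 1 library, against 0.0033. In overTST it was 0.070 with upper-quartile scaling, 0.017 with the length correction and 0.016 with the replicate block and the length correction, against 0.04. Why these values moved was not tested. Leaving out 1 library gave 13 to 17 members called in overTST and 14 to 20 between the lines. The calls over all genes were then 3979 to 5263 in overTST and 3986 to 5265 between the lines. Same-numbered libraries correlated at −0.09 to 0.16 across genes, with 5 of 12 best with their own number. The labels give only the number and no day or batch, so whether same-numbered samples shared one was not settled. With the replicate block 18 members were called in overTST and 20 between the lines. The calls over all genes with the block were 5166 and 5232, against 4893 and 4907. Beside the length correction and single libraries, calls ended with no filter on low counts for SLC25A20 (edgeR adjusted p = 0.0779) and SLC25A13 (0.051) in shTST and for VDAC1 (0.223), SLC25A28 (0.0762) and SLC25A1 (0.0675) in overTST, with upper-quartile scaling for SLC25A13 in shTST (0.0826) and SLC25A32 in overTST (0.0782), and with all 12 libraries in the fit for SLC25A13 in shTST (0.0577). Depth limits the 8 members that were not tested and SLC25A48.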
